A study of Mus musculus with 13 samples.

Results

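The genes described here encode the proteasome and its regulators. The 41 genes were taken by symbol from a list that names the subunits of the constitutive 20S core and the 19S regulatory particle, 4 assembly factors, 4 activators and the transcription factor NFE2L1, and they were matched through the mouse annotation of GRCm39. They are 41 of the 57010 genes listed in each library, and all 41 had enough counts to be among the 15034 genes tested. The samples were mouse embryonic fibroblasts (MEFs) of wild-type mice, grown from embryos of mid-gestation. Control MEFs received no etoposide and no Fucoidan-FV, only the vehicle. Senescent MEFs were made with 2 μM etoposide for 24 h, a topoisomerase inhibitor that breaks DNA, followed by 5 days in normal medium. Of these senescent MEFs, a group was left untreated and a group each received 100 or 300 μg/mL Fucoidan-FV, a polysaccharide rich in sulfate groups that is obtained from the seaweed Fucus vesiculosus, for 12 h before RNA was taken. Control MEFs with Fucoidan-FV were not analysed here, so that the treatment is seen only in etoposide-treated cells. Each of the 4 groups has 3 samples, labelled mouse 4, 5 and 6, and control mouse 5 was sequenced as 2 libraries, 5(1) and 5(2), which were summed.

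The proteasome is the protease that degrades most proteins tagged with ubiquitin. Its 20S core is a barrel of alpha rings, which gate the entry, and beta rings, which hold the proteolytic sites. The 19S particle binds ubiquitin chains, removes them in its lid, and unfolds the substrate with a ring of ATPases in its base. When proteasome activity falls short, NFE2L1 (NRF1), a factor that is held at the endoplasmic reticulum and itself degraded by the proteasome, is processed and raises the transcription of the subunit genes together. In fibroblasts, a decline of proteasome function is a known feature of replicative ageing and senescence.

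The genes with the largest changes called in any comparison were Psmd8, Psmc4, Psma3, Psme3 and Psmc5, and their promoters are shown so that the motifs searched can be read in them. On GRCm39, Psmd8 lies at chr7:28873612-28880135 and Psmc4 at chr7:27738180-27749526, both on the minus strand. Psma3 lies at chr12:71021279-71043849, Psme3 at chr11:101206777-101215813 and Psmc5 at chr11:106146951-106156291, all on the plus strand. The promoter windows come from RefSeq on an older build, GRCm38.p6, and cover 250 bases before to 50 bases after the start of transcription, 5′ to 3′ on the strand of the gene. Capitals mark CCAAT (the box bound by NF-Y) or its reverse complement ATTGG. The core of the antioxidant response element bound by NFE2L1 and related factors, TGACNNNGC, is in none of these windows on either strand. The windows are chr7:29180624-29180923 for Psmd8, chr7:28050043-28050342 for Psmc4, chr12:70974373-70974672 for Psma3, chr11:101315963-101316262 for Psme3 and chr11:106255935-106256234 for Psmc5.
Psmd8: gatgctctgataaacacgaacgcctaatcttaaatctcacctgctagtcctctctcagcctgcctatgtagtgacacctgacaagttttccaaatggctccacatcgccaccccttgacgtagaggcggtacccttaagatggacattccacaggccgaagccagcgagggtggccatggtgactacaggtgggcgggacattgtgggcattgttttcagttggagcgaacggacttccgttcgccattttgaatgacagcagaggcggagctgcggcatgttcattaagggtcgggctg
Psmc4: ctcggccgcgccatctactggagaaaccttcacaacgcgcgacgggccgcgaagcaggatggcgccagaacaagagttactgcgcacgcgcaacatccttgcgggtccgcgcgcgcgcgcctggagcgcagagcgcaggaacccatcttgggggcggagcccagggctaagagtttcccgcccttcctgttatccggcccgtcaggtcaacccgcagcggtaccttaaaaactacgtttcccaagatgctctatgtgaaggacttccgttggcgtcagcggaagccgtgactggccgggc
Psma3: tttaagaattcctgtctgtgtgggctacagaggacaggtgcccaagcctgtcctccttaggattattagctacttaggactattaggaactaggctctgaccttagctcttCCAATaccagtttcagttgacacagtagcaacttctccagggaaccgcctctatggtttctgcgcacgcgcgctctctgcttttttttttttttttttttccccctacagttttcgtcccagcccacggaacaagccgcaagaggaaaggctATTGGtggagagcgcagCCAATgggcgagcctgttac
Psme3: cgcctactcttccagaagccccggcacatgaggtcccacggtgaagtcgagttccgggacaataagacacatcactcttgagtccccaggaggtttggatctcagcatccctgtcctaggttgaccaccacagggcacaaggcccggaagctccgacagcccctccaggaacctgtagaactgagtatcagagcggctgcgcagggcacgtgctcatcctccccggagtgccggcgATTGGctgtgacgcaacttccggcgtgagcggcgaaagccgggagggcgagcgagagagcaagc
Psmc5: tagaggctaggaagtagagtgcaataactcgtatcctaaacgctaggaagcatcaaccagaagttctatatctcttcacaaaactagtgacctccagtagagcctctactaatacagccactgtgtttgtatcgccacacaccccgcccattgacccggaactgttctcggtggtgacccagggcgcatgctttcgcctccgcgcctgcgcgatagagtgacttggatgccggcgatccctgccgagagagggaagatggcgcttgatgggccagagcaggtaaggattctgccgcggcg

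A promoter was found for 35 of the 41 genes. TGACNNNGC was present, on either strand, in 7 of these 35 windows (20%), those of Adrm1, Psmb5, Psmb6, Psmc6, Psmd12, Psmd9 and Psme4, and in 13.99% of the windows of 27025 genes. CCAAT or ATTGG was present in 14 of the 35 (40%) and in 41.1% of all. Of the 5 promoters printed, that of Psma3 has CCAAT at positions −139 and 31 and ATTGG at 14 from the start, and that of Psme3 has ATTGG at −14. The exact binomial 95% intervals of these shares, 8.44% to 36.9% and 23.9% to 57.9%, include the shares among all genes. A match is a description of the letters in a window and says nothing of whether a factor binds there.

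The libraries had 22782536 to 31278750 counts, and the proteasome gene with the fewest counts in a sample, Psma5, still had 132. The 12 fibroblast markers, led by Fn1 (mean 30451 CPM), summed to 32790 to 56701 CPM (counts relative to the size of the library, with TMM normalization). The 8 macrophage markers summed to at most 14.01 CPM. The lists for fibroblasts, macrophages, endothelium and epithelium had no marker at 0 in every sample. Not all fibroblast markers were high. In control MEFs, Lum was at 0 to 0.098 CPM and Dcn at 0.726 to 1.57 CPM. Dcn was at 12.7 to 22.9 CPM in senescent MEFs, 37.5 to 168 CPM at 100 μg/mL and 40.3 to 133 CPM at 300 μg/mL. The sum of 6 skeletal muscle markers, led by Acta1, ranged over the 3 samples from 81.7 to 122 CPM in the control group, from 75.0 to 92.9 CPM in the untreated senescent group, from 14.5 to 52.2 CPM at 100 μg/mL and from 17.96 to 43.4 CPM at 300 μg/mL. The sum of 5 endothelial markers, led by Tek, ranged from 0.188 to 2.08 CPM and 1.37 to 1.90 CPM in the untreated groups, and from 5.53 to 9.58 CPM and 3.82 to 7.86 CPM at 100 and 300 μg/mL. The muscle sum was thus lower and the endothelial sum higher in every treated sample than in every untreated one. Each sum mostly followed its leading gene. Of the 6 muscle markers, 4 were under 1 CPM in every sample. Tek was at 0 to 0.863 CPM in untreated and 3.69 to 7.96 CPM in treated samples. Kdr was at 0.032 to 1.12 CPM and 0 to 0.711 CPM, so it did not rise. Kdr and these 4 muscle markers were near the floor. Whether the share of muscle or endothelial cells differed was not tested, nor was its part in the result for the proteasome genes. In bulk RNA, fewer cells of a type and less RNA per cell cannot be told apart.

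Library properties that touch the values of the proteasome genes are given first. The repeat libraries of control mouse 5 differed from each other by a median of 0.55 on the log2 scale over all genes tested and of 0.39 over the 41 genes. For Psme4, Psma5, Psmd7 and Psmb5 library 5(2) exceeded 5(1) by 2.21, 2.15, 2.12 and 1.45 on the log2 scale, although both come from the same mouse and group. These 4 genes also had the largest standard errors of the list in the comparisons. Psmd8, Psmc4, Psmc5 and Psma3 differed in the other direction, by −0.59, −0.70, −0.36 and −0.35, so they were not free of this property.

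The other property is the library of untreated senescent mouse 6. The median deviation of the 41 genes from their own mean over the 12 samples was 0.64 on the log2 scale in that sample, against −0.01 in senescent mouse 4 and 0.08 in senescent mouse 5. Control MEFs had median deviations of 0.41, 0.36 and 0.30 in mice 4, 5 and 6. At 100 μg/mL the values were −0.32, −0.35 and −0.28, and at 300 μg/mL −0.17, −0.32 and −0.22. All 6 treated samples therefore lay below all 6 untreated ones, and senescent mice 4 and 5 lay between the control and the treated samples. Over all genes tested the same medians stayed between −0.13 and 0.08. Since this library moves many of the values with treatment, the log2 fold changes without it are given beside those results.

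**Figure D1:**
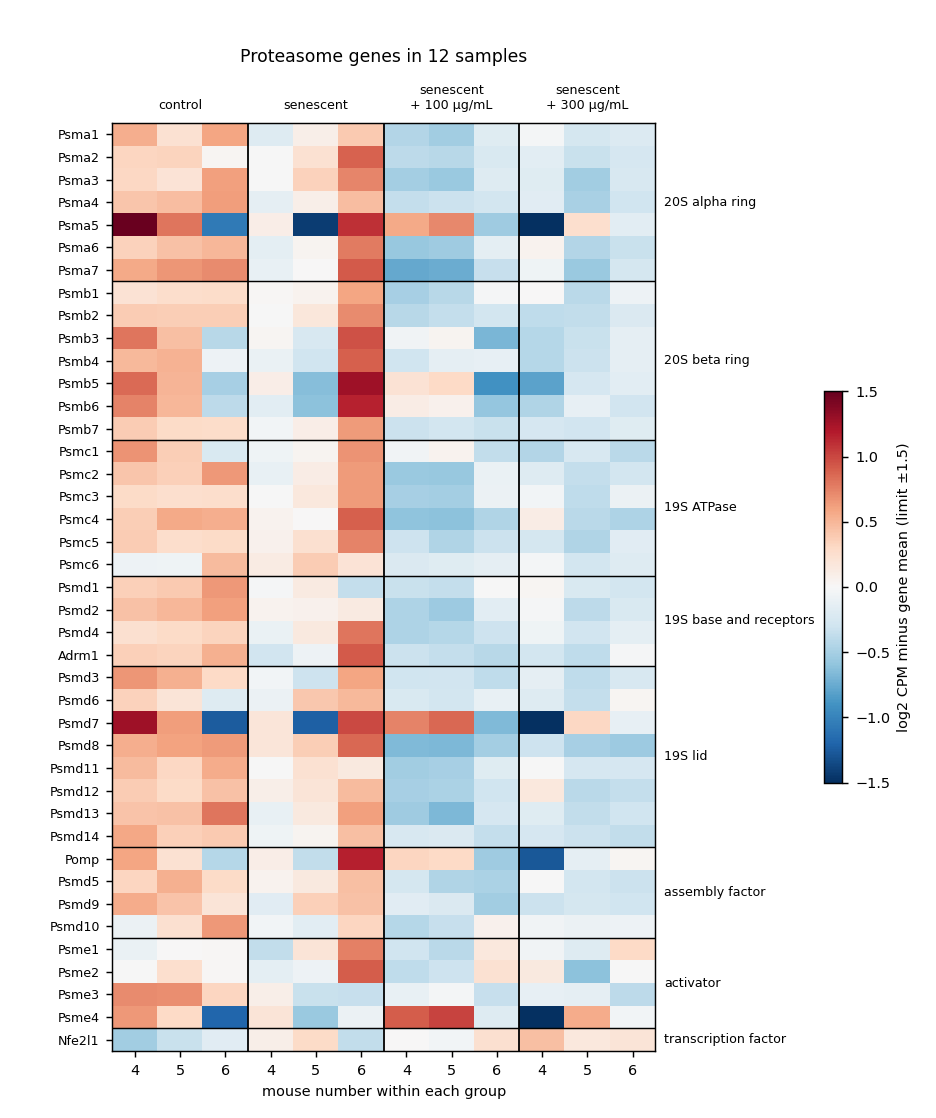
Each row is a proteasome gene, grouped by role, and each column a sample (mouse 4, 5 or 6 of the 4 groups). Colour gives log2 CPM minus the mean of the gene over the 12 samples, red for higher and blue for lower. The treated samples are mostly blue, and senescent mouse 6 is the reddest sample. Psma5, Psmd7 and Psme4 differ widely between samples of a group, as do Psmb5, Psmb6 and Pomp.

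The levels per length were compared with the TPM values deposited by the authors (a unit that accounts for transcript length and library size). Psmd8 had the highest mean over the 12 samples, 670.1 TPM, followed by Psma3 (386 TPM), Psmc3 (370.4 TPM), Psmb4 (346 TPM) and Nfe2l1 (310.5 TPM). The lowest were Psme4 (15.9 TPM), a nuclear activator, and the base assembly chaperones Psmd9 (24 TPM) and Psmd10 (26.6 TPM). Psma5 (34.4 TPM) and Psmd7 (41.8 TPM) were the lowest of the structural subunits and ranged from 7.6 to 69.0 TPM and from 10.02 to 79.6 TPM between samples. Their positions in the order were thus not separated from those of the neighbouring assembly factors.

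Together, the 32 structural subunits took 0.733% ± 0.0320 of all TPM in control MEFs, 0.684% ± 0.0786 in senescent MEFs, 0.593% ± 0.0225 at 100 μg/mL and 0.593% ± 0.00148 at 300 μg/mL (SD, n = 3). The 14 subunits of the 20S core summed to 3139 ± 249 TPM in control, 2938 ± 557 in senescent, 2654 ± 172 at 100 μg/mL and 2536 ± 113 at 300 μg/mL. For the core, the senescent and the treated samples overlapped, since senescent mouse 5 was at 2539 TPM and mouse 5 at 100 μg/mL was at 2821 TPM. The 18 subunits of the 19S particle summed to 4188 ± 185, 3905 ± 241, 3272 ± 55.7 and 3394 ± 117 TPM in the same order, and there no treated sample (3208 to 3516 TPM) reached an untreated one (3710 to 4316 TPM). Psmd8 made up a large part of that fall. It alone was at a mean of 799 TPM in senescent MEFs and at 522 and 523 TPM at 100 and 300 μg/mL. The 19S sum without Psmd8 was not analysed here. The ratio of 19S to 20S was 1.34 ± 0.121 in control MEFs, 1.35 ± 0.172 in senescent MEFs, 1.24 ± 0.0613 at 100 μg/mL and 1.34 ± 0.107 at 300 μg/mL, and the groups overlapped.

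**Figure D2:**
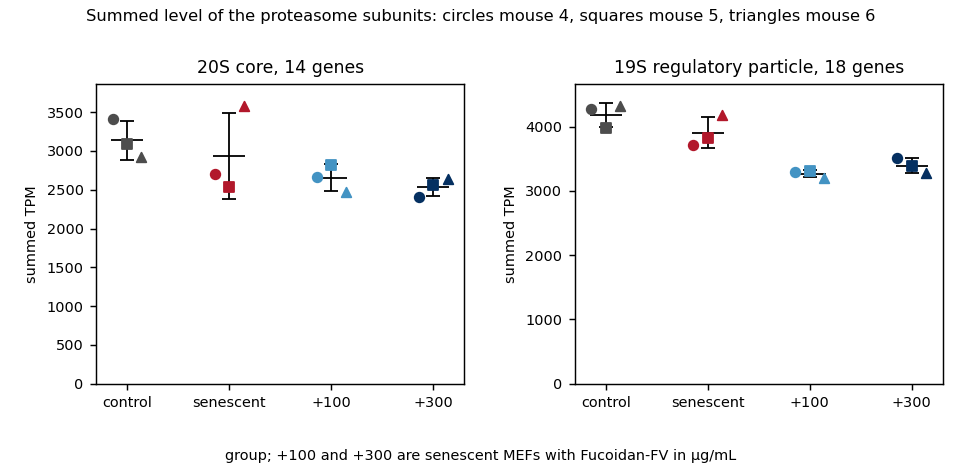
The vertical axes give the TPM summed over the 14 genes of the 20S core (left) and the 18 genes of the 19S particle (right), for each sample of the 4 groups on the horizontal axis. Points are mice, and the bars are the mean ± SD over 3. On the right every treated sample lies below every untreated one, with senescent mouse 6 highest of its group in both panels.

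Comparing untreated senescent with control MEFs asks how the proteasome genes stand in etoposide-induced senescence. A single gene of the list was called. Psme3, which encodes the nuclear activator PA28γ, was at 111, 110.5 and 84.8 CPM in control mice 4, 5 and 6 and at 72.1, 53.8 and 53.6 CPM in senescent MEFs. All 3 senescent samples were below all 3 controls. Psme3 was 41.5% lower in senescent MEFs, with a log2 fold change of −0.77 (SE 0.19 and adjusted p 0.0203) by edgeR's quasi-likelihood test. Without control mouse 4, control mouse 5, senescent mouse 5 or senescent mouse 6, its adjusted p rose to between 0.0508 and 0.0944, with log2 fold changes of −0.68 to −0.71. With Fucoidan-FV, Psme3 was at 62.7, 66.7 and 53.3 CPM and 62.6, 62.1 and 51.6 CPM, close to the untreated senescent samples.

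Of the 41 genes, 29 had a negative and 12 a positive log2 fold change in senescent MEFs, with a median of −0.11, and the median of all genes tested was 0.07. The 1 call in 41 stands beside 5.63% of all genes called lower and 6.11% called higher. The values of 4 genes did not overlap between the groups and were lower in senescent MEFs (Psmd1, Psmd2, Psmd11 and Psme3), where 12.9% of all genes tested were of that kind. Both counts are near or below the share of all genes.

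Psmd1 and Psmd2 are the large scaffold subunits of the 19S base. Psmd1 was at 258, 264 and 316 CPM in control MEFs and at 198, 221 and 158 CPM in senescent MEFs of mice 4, 5 and 6. Its log2 fold change of −0.54 (SE 0.18 and adjusted p 0.0742) did not pass the test, nor did that of Psmd2 at −0.43 (SE 0.16 and adjusted p 0.112). Unlike most of the list, Psmd1 was lowest among the senescent samples in mouse 6. At 100 and 300 μg/mL, Psmd1 was at 160.0, 157 and 201 and 205, 172 and 166 CPM, overlapping with untreated senescent MEFs.

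The result for the list turned on senescent mouse 6. Without that sample, the median of the 41 genes was −0.33 instead of −0.11, while that of all genes tested was 0.03. Then 10 genes were called, 9 of them lower in senescent MEFs (Psma1, Psma4, Psma6, Psma7, Psmc2, Psmd2, Psmd3, Psmd13 and Adrm1), with log2 fold changes of −0.45 to −0.69, and Nfe2l1 was called higher at 0.53 (adjusted p = 0.0139). Those 9 of 41 stand beside 8.14% of all genes called lower in that fit. Psme3 was then not called (adjusted p = 0.0508). On the CPM of all samples, 25 of the 41 genes did not overlap once that sample was left out, beside 20% of all genes. That count was chosen after the data had been seen, and values from 2 senescent samples are no better supported than those from 3.

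Comparing 100 μg/mL Fucoidan-FV with untreated senescent MEFs asks how treatment changes the genes in senescent cells. Most of the proteasome list had lower counts with treatment. The lid subunit Psmd8, the ATPases Psmc4 and Psmc5 and the core subunit Psma3 passed the test, and all of them fell. Of the 41 genes, 36 had a negative log2 fold change, and the median was −0.49 (29.0% lower), where the median of all genes tested was −0.02. The 4 genes called lower, of 41, stand beside 2.89% of all genes tested. An unadjusted p under 0.05 with a lower value was found for 25 of the 41 and for 12.7% of all genes, and 22 of the 41, beside 15% of all, did not overlap between the groups and were lower with treatment. No gene of the list was called higher.

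Psmd8 encodes a lid subunit that is needed to complete the lid and join it to the base. It was at 783, 817 and 833 CPM in control mice 4, 5 and 6, at 609, 693 and 971 CPM in untreated senescent MEFs, at 339, 335 and 378 CPM with 100 μg/mL and at 431, 381 and 369 CPM with 300 μg/mL. Both treated groups lay below every untreated sample, and controls overlapped with senescent MEFs. At 100 μg/mL it fell by 53.7%, with a log2 fold change of −1.11 (SE 0.18 and adjusted p 0.00719), and at 300 μg/mL by 48%, with −0.94 (SE 0.18 and adjusted p 0.02). Psmd8 was the only gene of the list at 100 μg/mL that was called and also changed more than 1 unit of log2, a rule that 1.6% of all genes tested passed with a lower value. Without senescent mouse 6, Psmd8 was still called at both doses, with −0.75 (adjusted p = 0.00601) at the lower and −0.68 (adjusted p = 0.0106) at the higher. At 300 μg/mL it was no longer called without mouse 5 or mouse 6 of that dose (adjusted p = 0.0834 and 0.133).

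Psmc4 and Psmc5 encode ATPases of the ring that unfolds substrates. Psmc4 was at 208, 239 and 234 CPM in control, 167, 162 and 301 CPM in senescent, 106, 105 and 118 CPM at 100 μg/mL and 174, 122 and 117 CPM at 300 μg/mL. At 100 μg/mL all 3 samples were below all senescent ones, while at 300 μg/mL mouse 4 exceeded senescent mice 4 and 5. Psmc4 fell by 47.7% at 100 μg/mL, with a log2 fold change of −0.94 (SE 0.24 and adjusted p 0.0477), and at 300 μg/mL the value was −0.61 (SE 0.24 and adjusted p 0.232). With the mouse as a replicate block, the call at 100 μg/mL was lost (−0.91, adjusted p = 0.0743).

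Psmc5 was at 163, 151 and 153 CPM in control, 130.4, 148 and 209.8 CPM in senescent, 101, 91.4 and 100 CPM at 100 μg/mL and 104, 91.7 and 111 CPM at 300 μg/mL. Every treated sample was below every untreated one. It fell by 40.1% at 100 μg/mL, with −0.74 (SE 0.19 and adjusted p 0.0446), and its log2 fold change at 300 μg/mL was −0.67 (SE 0.19 and adjusted p 0.0898). The replicate block ended its call at 100 μg/mL as well (−0.72, adjusted p = 0.0616). Of the 6 ATPase genes, 5 had an unadjusted p under 0.05 at 100 μg/mL, and all 6 log2 fold changes were negative, from −0.37 for Psmc1 to −0.94 for Psmc4.

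Psma3, of the alpha ring, was at 213, 199 and 263 CPM in control, 171, 219 and 284 CPM in senescent, 121, 116 and 149.6 CPM at 100 μg/mL and 151, 119.7 and 146 CPM at 300 μg/mL. Treated and untreated samples did not overlap. Psma3 fell by 42.7% at 100 μg/mL, with −0.80 (SE 0.21 and adjusted p 0.0481), and the value at 300 μg/mL was −0.70 (SE 0.21 and adjusted p 0.11). Without senescent mouse 6, none of Psma3, Psmc4 and Psmc5 was called at 100 μg/mL, with log2 fold changes of −0.46, −0.44 and −0.36 and adjusted p of 0.155, 0.179 and 0.145. Leaving out any 1 sample of the comparison ended the calls of Psmc4 and Psmc5, and any except senescent mouse 4 that of Psma3.

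**Figure D3:**
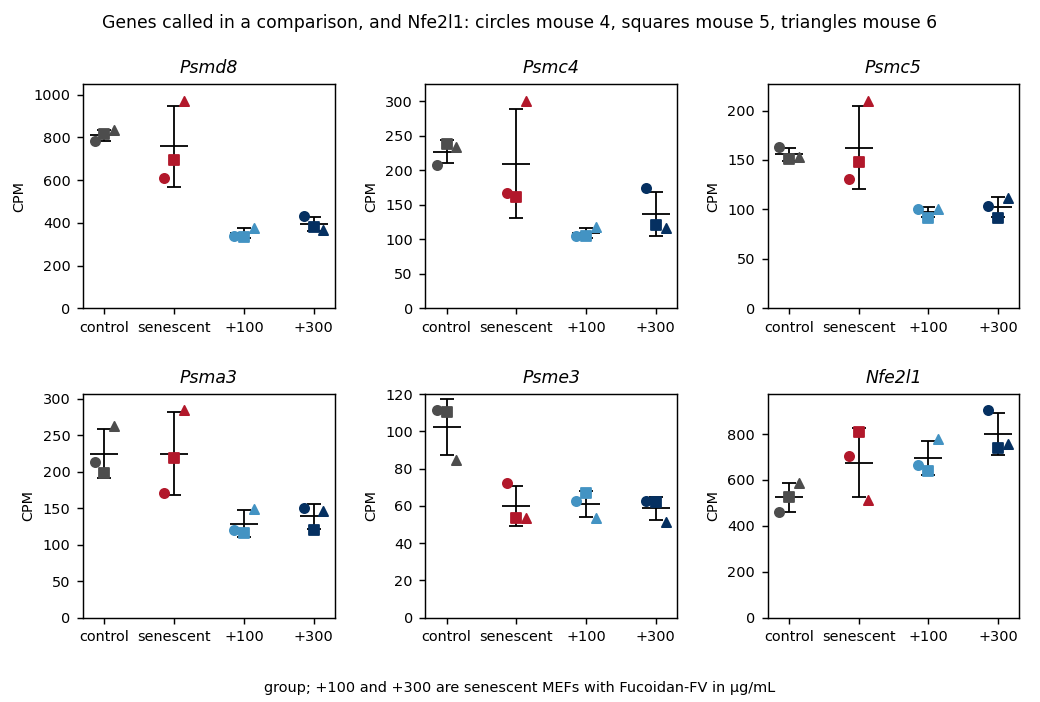
Each panel gives the CPM of a gene by group, with the mean ± SD over 3 mice as bars, for the 5 genes called in a comparison and Nfe2l1. Psmd8, Psmc5 and Psma3 have all treated samples below all untreated ones. Psme3 is lower in all 3 senescent groups than in control, and Nfe2l1 was not called.

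The alpha ring held another gene near the threshold. Psma7 was at 205, 218 and 225 CPM in control, 128, 138 and 260.3 CPM in senescent, 81.1, 82.1 and 108.6 CPM at 100 μg/mL and 132, 93.9 and 115 CPM at 300 μg/mL. The 100 μg/mL samples were all below the senescent ones, and those at 300 μg/mL overlapped with them. Its log2 fold change was −0.95 (SE 0.25 and adjusted p 0.0523) at 100 μg/mL and −0.63 (SE 0.25 and adjusted p 0.242) at 300 μg/mL, and −0.42 and −0.19 without senescent mouse 6. Over the alpha ring, 6 of 7 genes had negative values at 100 μg/mL, with a median of −0.68, and 5 did not overlap. Psma5 was the exception at 0.09.

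The proteolytic subunits were less clear. Psmb5 encodes the chymotrypsin-like site, and was at 73.7, 58.4 and 29 CPM in control, 43.8, 26.2 and 98.6 CPM in senescent, 47.7, 50.4 and 21.7 CPM at 100 μg/mL and 23.3, 34.4 and 36.7 CPM at 300 μg/mL. Psmb6, with the caspase-like site, was at 79.2, 66.9 and 36 CPM, 42.4, 30.8 and 105 CPM, 51, 49.4 and 31.5 CPM and 34.4, 43.4 and 38.7 CPM in the same order. In both genes senescent mouse 6 was far above the other 2 senescent samples, and treated and untreated samples overlapped. The log2 fold changes of Psmb5 were −0.49 (SE 0.47 and adjusted p 0.614) and −0.84 (SE 0.47 and adjusted p 0.439) at 100 and 300 μg/mL, and those of Psmb6 were −0.44 (SE 0.40 and adjusted p 0.606) and −0.62 (SE 0.41 and adjusted p 0.528). With that sample left out, Psmb5 had 0.37 and −0.11 at the doses and Psmb6 had 0.43 and 0.13.

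Psmb7, with the trypsin-like site, was at 149, 139.7 and 138 CPM in control, 111, 122 and 178 CPM in senescent, 91.3, 94.5 and 90.3 CPM at 100 μg/mL and 95.7, 93.5 and 100.4 CPM at 300 μg/mL. Unlike the other catalytic subunits it had no overlap between treated and untreated samples. Its log2 fold changes were −0.57 (SE 0.18 and adjusted p 0.0933) and −0.51 (SE 0.18 and adjusted p 0.186) and passed at neither dose, and without senescent mouse 6 they were −0.19 and −0.22. All 7 genes of the beta ring had negative values at both doses, with medians of −0.54 and −0.62, and none was called. Without senescent mouse 6, Psmb3 (0.07) and Psmb4 (0.16) also turned positive at 100 μg/mL, so that 4 of the 7 genes changed sign.

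In the base and lid of the 19S particle, the ubiquitin receptors Psmd4 and Adrm1 had log2 fold changes of −0.74 (SE 0.21 and adjusted p 0.0616) and −0.65 (SE 0.26 and adjusted p 0.183) at 100 μg/mL, neither called. Without senescent mouse 6 they had −0.28 (adjusted p = 0.215) and −0.03 (adjusted p = 0.939). The 8 lid genes had a median of −0.51 at 100 μg/mL and −0.46 at 300 μg/mL, and 7 and 8 of them were negative. Psmd7, the partner of the deubiquitinase Psmd14, was the lid gene with the other sign at 100 μg/mL. It was at 73.6, 47.1 and 12.8 CPM in control, 34.8, 13.1 and 60.8 CPM in senescent, 51.1, 55.7 and 19.3 CPM at 100 μg/mL and 9.19, 37.9 and 28.1 CPM at 300 μg/mL, and the groups overlapped. Its values were 0.21 (SE 0.67 and adjusted p 0.903) and −0.53 (SE 0.67 and adjusted p 0.784). They were 0.99 and 0.13 without senescent mouse 6.

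**Figure D4:**
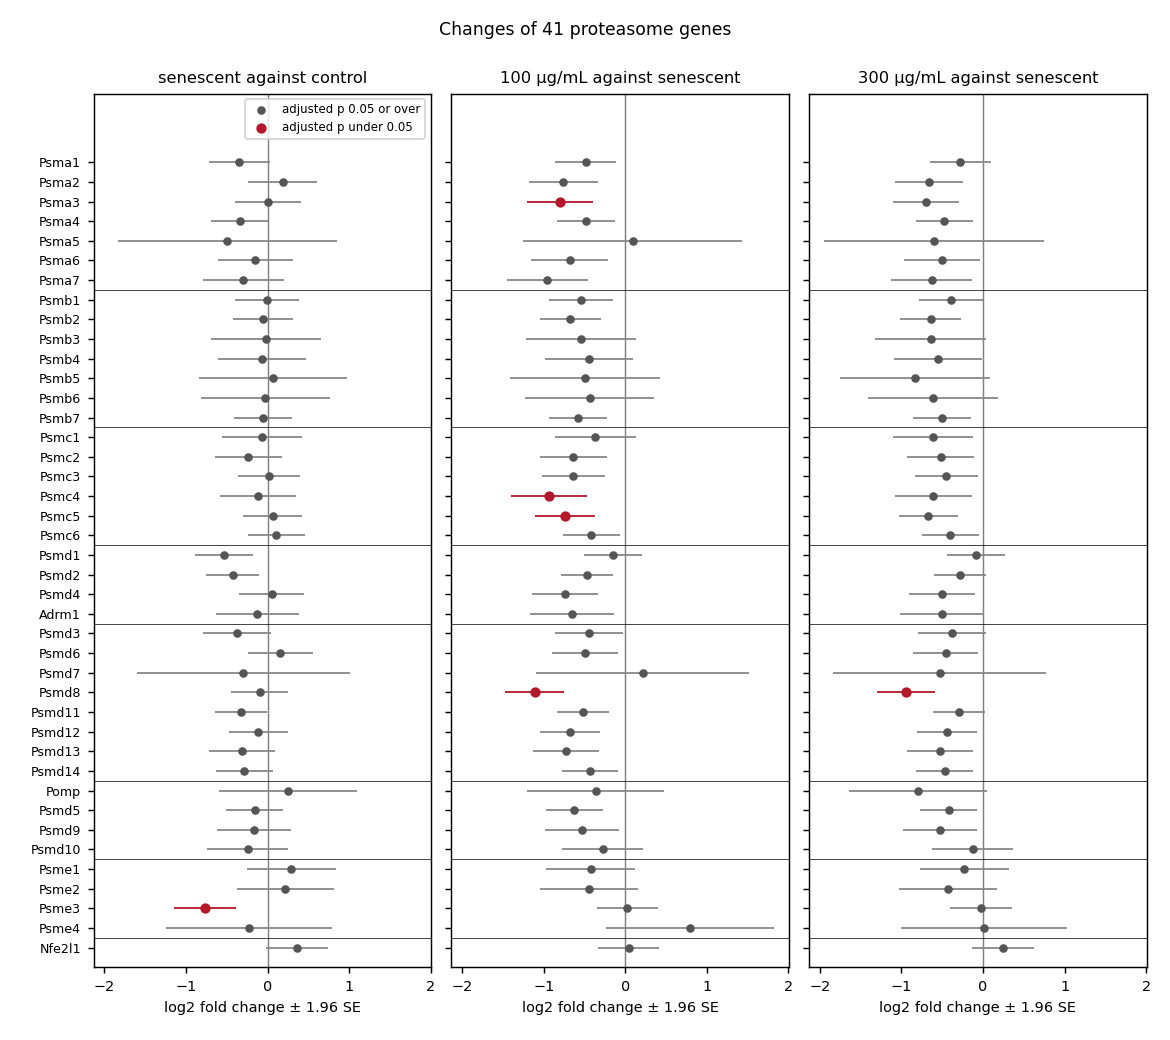
Points are log2 fold changes of the 41 genes in 3 comparisons, ordered by role from the alpha ring at the top to Nfe2l1 at the bottom, with bars of 1.96 SE to either side. Red marks an adjusted p under 0.05. Most points of the treated groups lie left of 0, and Psma5, Psmd7 and Psme4 have the widest bars.

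Of the assembly factors, Pomp, the chaperone that matures the 20S core, was at 54.9, 42.6 and 26.9 CPM in control, 38.8, 28 and 81.2 CPM in senescent, 45.3, 44.6 and 25.1 CPM at 100 μg/mL and 15, 33.1 and 37 CPM at 300 μg/mL. The groups overlapped, and the log2 fold changes were −0.37 (SE 0.43 and adjusted p 0.699) and −0.80 (SE 0.43 and adjusted p 0.419). Library 5(2) of control mouse 5 exceeded 5(1) by 0.86 for this gene. Psmd5, a chaperone of the base, did not overlap at either dose, with −0.62 (SE 0.18 and adjusted p 0.0675) and −0.42 (SE 0.18 and adjusted p 0.27), and Psmd9 and Psmd10 were not called. Leaving out senescent mouse 6 gave 0.37 and −0.18 for Pomp and −0.34 and −0.25 for Psmd5 at the doses.

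The activators bind the ends of the 20S core. Psme1 and Psme2 encode the interferon-inducible PA28αβ. Psme1 was at 30.5, 32.8 and 33.1 CPM in control, 25.3, 37.4 and 55.3 CPM in senescent, 26.7, 24.8 and 36.6 CPM at 100 μg/mL and 31.6, 28.6 and 40.4 CPM at 300 μg/mL. Psme2 was at 36.8, 44.2 and 37.5 CPM, 33.4, 35.3 and 69.4 CPM, 28.5, 29.8 and 43.4 CPM and 41, 24.3 and 36.9 CPM in the same order. Both overlapped between all groups. With treatment, Psme1 had −0.42 (SE 0.28 and adjusted p 0.44) and −0.23 (SE 0.28 and adjusted p 0.775), and Psme2 −0.44 (SE 0.31 and adjusted p 0.468) and −0.43 (SE 0.31 and adjusted p 0.562). The values turned positive without senescent mouse 6, to 0.05 and 0.15 for Psme1 and 0.11 and 0.02 for Psme2. Of their exonic bases, 35.6% and 26.4% lie opposite another gene (Emc9 and Rnf31), and 47.2% of those of Psmd13 lie opposite Cox8b and Sirt3. Whether the counting used strand is not given in the sources used here, so reads of these pairs may be shared.

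Psme4 encodes PA200, a nuclear activator. It was at 51.4, 40.3 and 14.2 CPM in control, 37.4, 22.2 and 30.7 CPM in senescent, 61.6, 66.3 and 28.6 CPM at 100 μg/mL and 10.9, 48.2 and 31.9 CPM at 300 μg/mL. The lowest and highest samples of a group differed several fold in control MEFs and at 300 μg/mL, and the groups overlapped. Its log2 fold changes of 0.79 (SE 0.52 and adjusted p 0.439) and 0.01 (SE 0.52 and adjusted p 0.996) did not pass. Psme3 had 0.03 and −0.03 at the doses, so no activator was called with Fucoidan-FV.

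Nfe2l1 was at 461, 525 and 589 CPM in control, 704, 808 and 513 CPM in senescent, 666, 641 and 778 CPM at 100 μg/mL and 904, 740.4 and 756 CPM at 300 μg/mL. Senescent mice 4 and 5 were above all controls, and senescent mouse 6 was among them. The log2 fold change was 0.36 (SE 0.19 and adjusted p 0.264) in senescent against control MEFs, 0.04 (SE 0.19 and adjusted p 0.932) at 100 μg/mL and 0.25 (SE 0.19 and adjusted p 0.614) at 300 μg/mL. NFE2L1 is regulated mainly as a protein, which RNA does not measure.

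At 300 μg/mL against untreated senescent MEFs, 39 of the 41 genes had a negative log2 fold change, with a median of −0.50 beside 0.00 over all genes tested. A single gene, Psmd8, was called, where 1.12% of all genes were called lower. An unadjusted p under 0.05 was found for 20 genes, all with lower values, beside 8.97% of all genes, and 18 did not overlap, beside 10.2%. All 32 structural subunits had negative values, from −0.09 for Psmd1 to −0.94 for Psmd8. Both doses were compared with the same 3 senescent samples, so the likeness of the medians is not independent.

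Without senescent mouse 6, the median of the list was −0.19 at both doses, where that of all genes was 0.14 at 100 μg/mL and 0.08 at 300 μg/mL. Then 26 and 32 of the 41 genes had negative values, and Psmd8 was the gene called at each dose. Of the 32 structural subunits, 24 and 28 were then negative. By role at 100 μg/mL, 3 of the 7 beta ring genes, 5 of the 6 ATPase genes, 6 of the 7 alpha ring genes and 6 of the 8 lid genes had a negative value, and the median of the beta ring was 0.07. The size of the medians thus depended on that library.

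The property that separates libraries 5(1) and 5(2) also bears on the calls. It was scored for each sample from the same counts that are tested. In mice 4, 5 and 6 the score was −0.01, −0.17 and −0.42 in control and 0.06, −0.21 and 0.10 in senescent MEFs. It was 0.28, 0.31 and −0.01 at 100 μg/mL and −0.21, 0.18 and 0.09 at 300 μg/mL. The score thus went in part with the groups, and the fit cannot fully separate it from treatment. Fitted as a covariate, an alternative chosen after the data had been seen, it left Psmd8 (−1.08) and Psmc5 called at 100 μg/mL, and not Psma3 or Psmc4. Another 7 genes were called lower there, Psma2, Psmb2, Psmb3, Psmb5, Psmb7, Psmd7 and Pomp. Among them, Psmb5 had −1.15 (adjusted p = 0.0399), Psmb3 −0.97 (adjusted p = 0.0455), Psmd7 −0.91 (adjusted p = 0.0290) and Pomp −0.98 (adjusted p = 0.0399). Psmb5, Psmb3, Psmd7 and Pomp were higher in library 5(2) than in 5(1), by 1.45, 0.86, 2.12 and 0.86 on the log2 scale. At 300 μg/mL, the 6 genes called were Psma3, Psmb2, Psmc5, Psmd7 (−0.74, adjusted p = 0.0457), Psmd8 and Pomp (−0.91, adjusted p = 0.0382). Of all 15034 genes tested, the covariate fit called 771 lower at 100 μg/mL and 601 lower at 300 μg/mL. In senescent against control MEFs, Psma5, Psmd1, Psmd7, Psme3 and Psme4 were called lower and Nfe2l1 higher (0.53, adjusted p = 0.0154). There 1692 of the 15034 genes were called lower and 1754 higher, so calls were common among all genes too.

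The scale also bears on the size. With RLE factors in place of TMM factors, the median at 100 μg/mL was −0.40 beside 0.07 for all genes, and Psmd8 alone was called. That scaling also moved the split of all calls at 100 μg/mL from 171 higher and 434 lower to 179 higher and 238 lower. On the deposited TPM without further scaling, 30 and 32 of the 41 genes were lower than in senescent MEFs at 100 and 300 μg/mL, with medians of −0.14 on the log2 scale at both, while the medians of 12877 genes with at least 1 TPM were 0.30 and 0.27. Relative to the other genes the list was thus lower on each scale, and in TPM the shift of all genes was upward. Psmd8 was at 799 TPM in senescent MEFs and at 522 and 523 TPM at the doses.

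Between the doses, no gene of the list was called, and none had an unadjusted p under 0.05 in the main edgeR fit or by DESeq2. By edgeR without a low-count filter 2 genes had such a p, and without mouse 5 of 300 μg/mL 1 gene did. Of all genes tested, 1 (0.00665%) was called. At 300 against 100 μg/mL, 30 of the 41 log2 fold changes were positive, with a median of 0.07 beside 0.08 over all genes tested. Psmd4 was the gene without overlap (higher at 300 μg/mL, 0.24 (SE 0.21 and adjusted p 0.97)), beside 5.1% of all genes. For Psmd8 the log2 fold change between the doses was 0.17, with an interval of −0.19 to 0.52, which covers 1.96 SE to either side, and this does not show that the doses act alike. Psmc4 and Psma7 had the largest values at 0.32 and 0.32, and Psme4 and Psmd7 the lowest at −0.78 and −0.75.

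**Figure D5:**
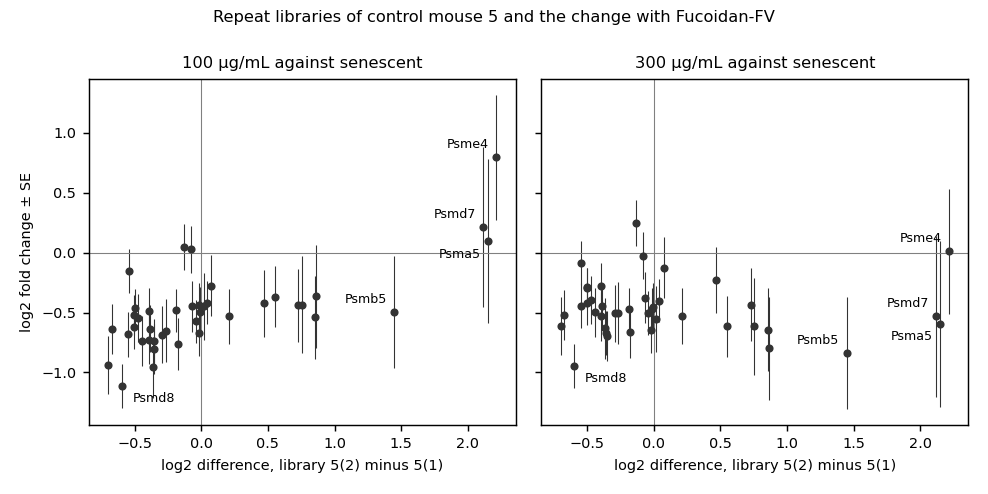
The horizontal axis is the log2 difference between libraries 5(2) and 5(1) of control mouse 5, and the vertical axis the log2 fold change ± SE at 100 μg/mL (left) and 300 μg/mL (right), for the 41 genes. Psme4, Psma5 and Psmd7 stand at the far right with wide bars. Psmd8 has a negative difference between the libraries (−0.59) and the lowest log2 fold change.

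The structural subunits varied together. Over the 12 samples, the 496 pairs of the 32 subunits had a median Pearson correlation of log2 CPM of 0.79, from −0.45 to 0.99, a description to which the groups and the libraries both contribute. Psma5 and Psmd7 were the least like the others, with median correlations of 0.15 and 0.05, and were most like each other (0.99). Psma7 and Psmc2 had the highest median correlations with the subunits (0.92 and 0.91). Among the regulators, Psmd5 followed the subunits most closely (0.86), and Psme4 and Nfe2l1 had negative medians of −0.29 and −0.62. Psmd8 was most like Psmb2 (0.97) of the core.

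Another 47 genes of the ubiquitin-proteasome system, from a list of inducible subunits, assembly chaperones, shuttle receptors, ubiquitin genes and transcription factors, were looked up, and 45 of them were tested. Psmb11, a subunit of the thymus, had too few counts, and Paaf1 was not matched by its symbol. In senescent against control MEFs, 2 of the 45 were called, both higher, beside 6.11% of all genes called higher. The values of Psma8 are given. This gene encodes an alpha subunit of the testis and had levels of 0.085, 0.275 and 0.611 CPM in the controls and 1.95, 2.8 and 1.16 CPM after etoposide, a change of 2.60 (SE 0.78 and adjusted p 0.0449) on the log2 scale. Psma8 had only 2 to 65 counts in a sample, so these levels are near the floor. The fit that needed at least 10 counts in every sample left it out. The call was kept in 8 of the 17 alternatives that gave a value. It was lost with the replicate block (adjusted p = 0.0669) and without control mouse 4, control mouse 5, senescent mouse 4 or senescent mouse 5 (0.0883 to 0.125).

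At 100 μg/mL, 2 of the 45 were called and both fell, beside 2.89% of all genes called lower. Maff encodes a small MAF protein, a partner of factors such as NFE2L1, and was at 90, 89.5 and 102 CPM in control, 93, 104 and 96.8 CPM in senescent, 35, 30.8 and 22.2 CPM at 100 μg/mL and 43, 34.5 and 30.4 CPM at 300 μg/mL. It lay lower in every treated sample and was called at both doses, with −1.74 (SE 0.21 and adjusted p 0.00143) and −1.44 (SE 0.21 and adjusted p 0.00463). Rps27a, which encodes ubiquitin fused to a ribosomal protein, was at 408, 413 and 841 CPM in senescent MEFs, 251, 233 and 327 CPM at 100 μg/mL and 356, 267 and 310.2 CPM at 300 μg/mL. Its values were −1.03 (SE 0.26 and adjusted p 0.045) and −0.83 (SE 0.26 and adjusted p 0.127). At 100 μg/mL Rps27a was called in 8 of 18 alternatives, and it was not called with the replicate block (adjusted p = 0.0523), without senescent mouse 6 (−0.47, adjusted p = 0.0592) or without any 1 mouse of that dose (adjusted p = 0.063 to 0.187). Maff was called in each of its 18 alternatives at both doses. At 300 μg/mL Maff alone was called, beside 1.12% of all genes called lower. The median of the 45 genes was −0.14 and −0.18 at the doses, and none was called between them.

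The inducible subunits replace the catalytic ones in the immunoproteasome. Psmb8 was at 1.1, 1.32 and 1.79 CPM in control, 0.959, 0.862 and 3.81 CPM in senescent, 1.31, 0.833 and 4.6 CPM at 100 μg/mL and 0.969, 1.14 and 2.03 CPM at 300 μg/mL. Psmb9 was under 1 CPM in every sample. Psmb10 was at 12, 13.2 and 10.2 CPM in control, 11.2, 8.19 and 24.6 CPM in senescent, 7.61, 6.78 and 14.5 CPM at 100 μg/mL and 6.4, 8.57 and 11.9 CPM at 300 μg/mL. None of the 3 was called in any comparison, and Psmb8 and Psmb10 were highest in senescent mouse 6 among the untreated samples.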

How the data were processed

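RNA of MEFs was sequenced in 4 groups of 3 mice with a stranded total RNA kit. Per the labels, reads were checked with FastQC 0.12.1, trimmed with Trimmomatic, aligned with STAR 2.7.11b to GRCm39 and quantified with RSEM 1.3.1. The authors deposited expected counts per gene, without normalization, and TPM, which RSEM scales by length and library. The deposited expected counts were rounded, libraries 5(1) and 5(2) of control mouse 5 were summed, and filterByExpr, with a minimum of 10 counts and 15 in total, left 15034 genes. Of the 57010 genes listed, 56310 were matched to GENCODE M39. The deposited TPM were used for levels and summed levels, with no test, and a table of all libraries repeating the counts was not used.

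The main test was that of edgeR 4.0.16 in R 4.3.3 (TMM factors, quasi-likelihood test over the 4 groups, Benjamini-Hochberg over all genes tested), and genes were called at an adjusted p under 0.05. The study names DESeq2 (1.42.0 here), which was an alternative, as was its fold threshold of 1 on the log2 scale. The other alternatives were RLE factors, other low-count filters, fits of the compared groups alone, either library of control mouse 5 alone, offsets for sequence shared between transcripts, each mouse left out in turn, and the mouse as a replicate block. Samples with the same mouse label (4, 5 or 6) were taken as paired from these labels. In 18 same-numbered pairs the correlation of deviations from the group means ran from −0.20 to 0.43 (median −0.006), and 8 were over 0.1. The study describes the 3 samples of a group as biological replicates, and the p-values measure the spread between these samples.

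The 41 genes, the other gene lists and the motifs were chosen with earlier results of these data known. Values in every sample are given for catalytic subunits, activators, Pomp, Nfe2l1, each gene called, and the 2 highest and 2 lowest log2 fold changes of each comparison, and some genes of the ubiquitin-proteasome list are not reported here. A covariate for the property separating libraries 5(1) and 5(2), and the TPM scale, were added after the data were seen. The script was tested on simulated data with known changes. Promoters are from RefSeq (GRCm38.p6). Depth ranged from 22782536 to 31278750 counts per library, and intervals of shares cover counting alone.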

Additional observations from a re-analysis of the deposited data

How the results depend on the processing

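The calls were few and moved with the processing, while the negative medians at both doses kept their sign in every alternative run. In senescent against control MEFs, 1 gene of the 41 was called, against 3 by DESeq2, with offsets for shared sequence (with or without the replicate block) or with at least 10 counts in every sample, 2 with library 5(1) alone, 6 with the library covariate (5 with the block), and 0 with the compared groups alone or an added fold threshold. Leaving out a mouse gave 0 to 10 calls. Of all genes, 1765 of 15034 were called in the main fit and 2820 of 27238 by DESeq2. The offsets gave 2452 of 15034 (2233 with the block), and at least 10 counts in every sample 1798 of 11240. Library 5(1) alone gave 1881 of 15030, the covariate 3446 of 15034 (3496 with the block) and the compared groups alone 765 of 13710. With a mouse left out, 1172 to 2684 of all genes were called. At 100 μg/mL the 4 calls became 10 by DESeq2, 9 with the library covariate (11 with the block), 2 with the replicate block, 1 with RLE factors, at least 10 counts in every sample, library 5(2) alone or the fold threshold, and 0 with the compared groups alone, and leaving out a mouse gave 1 to 3. At 300 μg/mL the 1 call became 3 by DESeq2, 2 with the offsets (with or without the block), 6 with the covariate (5 with the block) and 0 with the compared groups alone or the fold threshold, and leaving out a mouse gave 0 or 1. Among all genes at 100 μg/mL, 605 of 15034 were called in the main fit and 1405 of 27238 by DESeq2. The covariate gave 1136 of 15034 (1335 with the block), the replicate block 433, RLE factors 417 and the compared groups alone 170 of 14400. At 300 μg/mL the main fit called 286 and DESeq2 991. The offsets gave 545 (477 with the block), the covariate 993 (1098 with the block) and the compared groups alone 101 of 14011. The cause of these differences was not tested. Fitting the compared groups alone leaves fewer samples for the spread.

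With the mouse as a replicate block, the paired fit called 1, 2 and 1 of the 41 genes in senescent against control MEFs and at 100 and 300 μg/mL. The 2 at 100 μg/mL were Psmd8 and Psma3 (adjusted p = 0.0147 and 0.0417), and Psmc4 and Psmc5 were no longer called. It changed no other call of the 41.

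The median at 300 μg/mL was −0.14 on the TPM scale, against −0.50. Between the doses it was −0.011 with at least 10 counts in every sample, against 0.07, and 0.043 to 0.16 when a mouse was left out. Psmd7 reversed at 100 μg/mL, to −0.91 with the library covariate and −0.92 with the block as well. Psma5 and Psme4 also changed sign there with the covariate, from 0.09 to −0.92 and from 0.79 to −0.18. Psmd1 went the other way, from −0.16 to 0.04. That covariate comes from the same counts and goes in part with the groups. Of the 45 other genes, the 2 calls in senescent MEFs became 6 by DESeq2 or with the offsets (with or without the block), 11 with the covariate (with or without the block), 1 with library 5(2) alone or the fold threshold and 0 with the compared groups alone, and leaving out a mouse gave 0 to 7. The 2 calls at 100 μg/mL became 7 by DESeq2, 8 with the covariate (9 with the block), 5 without a low-count filter and 1 with RLE factors, the compared groups alone, library 5(2) alone, the replicate block or the offsets with the block, and leaving out a mouse gave 1 to 4. The 1 call at 300 μg/mL became 2 by DESeq2, 3 without a filter and 4 with the covariate (3 with the block). Calls among all genes moved with these settings too, as given above. Without a filter they were 1144 and 782 of 27238 at 100 and 300 μg/mL. The motif counts on the given strand alone were 4 and 12 of 35.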

Other observations

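Beyond the genes that passed, Bach1 was chosen after its values were seen. Its samples at 100 and 300 μg/mL were all above the untreated senescent ones. Of the 15034 genes tested, 1688 and 1414 were higher without overlap in these comparisons. Bach1 encodes a repressor at antioxidant response elements. It was at 32.6, 29.1 and 20.8 CPM in control, 26.7, 25.2 and 10.5 CPM in senescent, 41.5, 47.1 and 46.7 CPM at 100 μg/mL and 33, 43.7 and 42.8 CPM at 300 μg/mL in mice 4, 5 and 6. Its log2 fold changes with treatment were 1.12 (SE 0.31 and adjusted p 0.0626) and 0.94 (SE 0.31 and adjusted p 0.154) by edgeR, and senescent mouse 6, which was highest for the subunits, was lowest for Bach1.

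Of the 41 genes, 6 have copies that the annotation names after them, 7 in all, and the copies held at most 2.77% of the counts of their gene (Psme2b against Psme2). Copies under other names were not analysed here.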
